A study of Mus musculus with 6 samples.

Results

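The genes described here encode the subunits of vesicle coats, tethering complexes and the translocon of the secretory and endosomal pathways. They were chosen by symbol alone. The rule took the sigma, mu, beta, gamma, delta and epsilon subunits of the adaptor complexes AP-1 to AP-4. It also took the COPI subunits whose symbols begin with Cop. Further members were all genes whose symbols begin with Sec, Vps or Exoc and a number, with Trappc, or are Cog1 to Cog8. After 3 pseudogenes with such symbols were left out, 128 of the 53379 genes in the count tables remained, and 123 of them had enough reads to be tested. All 6 libraries came from Min6, a mouse insulinoma line used as a model of the pancreatic beta cell, at passage 31, and every library came from cells that received 500 µM palmitic acid together with 25 mM glucose over 30 h, which the labels name glucolipotoxicity. One group of 3 libraries is RNA that came down with an antibody against the RNA-binding protein hnRNPK (IP), from lysate holding 200 µg of protein, and the other group of 3 is total RNA from a 10% input of lysate. Untreated cells and a control antibody were not analysed here, so an effect of the treatment cannot be read from these values, and RNA bound to hnRNPK and RNA held by the beads or antibody cannot be told apart. Min6 is a tumour line rather than islet tissue.

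hnRNPK is a heterogeneous nuclear ribonucleoprotein that binds C-rich single-stranded RNA through its KH domains. Proteins bound for secretion enter the endoplasmic reticulum through the Sec61 channel, leave it in COPII-coated vesicles and are returned from the Golgi in COPI-coated vesicles. Tethers such as TRAPP, COG, GARP, HOPS and the exocyst catch vesicles at their target membrane, clathrin adaptors pick cargo at the Golgi, endosomes and plasma membrane, and retromer and the ESCRT machinery sort cargo in endosomes. In a beta cell this route carries proinsulin to the secretory granule. Most of these machines combine large scaffold subunits with small ones, which sets up the comparison of small with large subunits made here.

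Libraries held 38764925 to 52735957 counts, of which the 128 genes took 0.986% to 1.02% in the IP and 1.10% to 1.12% in total RNA. IP libraries varied more among themselves, with a biological coefficient of variation of 42.6% against 12.2% among total RNA libraries. All 12 beta cell markers listed were measured, and their summed level was 26607 to 37993 CPM (normalised read count, scaled with TMM factors) in total RNA and 8887 to 11279.8 in the IP, with 6 enriched and 6 depleted. Markers of other islet cells summed to 133 to 167 CPM in total RNA and 123 to 171 in the IP, nearly all of it glucagon (Gcg), while the 6 exocrine and duct markers summed to 0.434 to 0.631 CPM in total RNA and 0.118 to 1.21 in the IP. Cpa1, Prss2 and Amy2a5 among them were at 0 in all libraries, and Krt19, a duct keratin, had reads in each. Markers of stroma, endothelium and immune cells summed to 2.80 to 4.08 CPM in total RNA and 6.19 to 8.39 in the IP, and their part in the results was not tested.

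The mRNAs at the ends of the range are shown first by sequence, because hnRNPK is known for binding C-rich RNA. For the 4 highest and the 4 lowest log2 fold changes among members with at least 5 CPM on average, leaving out Sec11c, the 30 nt of the longest annotated 3' UTR with the most C are given 5' to 3' from GENCODE M21 transcripts (GRCm38, the same build as mm10). Capitals mark runs of 3 or more C.
Sec24a, chr11:51694613-51694642, minus strand: ttttgCCCCgCCCgCCCCCCCCCCCacttc
Vps37c, chr19:10712685-10712714, plus strand: CCCtccaaagcgCCCgccaCCCCCacgCCC
Sec61a2, chr2:5871357-5871386, minus strand: CCCCaCCCCtacttgattcatcctatCCCC
Ap3s2, chr7:79879889-79879918, minus strand: gccactaccaCCCCCCCCCCCCacacacac
Sec61b, chr4:47483063-47483092, plus strand: attgggctacatccatctgtcatctgaaga
Trappc2l, chr8:122616255-122616284, plus strand: cttCCCCaagtcctcagccaaggacctCCC
Trappc4, chr9:44404153-44404182, minus strand: caagtcattcctaccgattctgcctctacc
Trappc6a, chr7:19515878-19515907, plus strand: ggaCCCCagaCCCCaggcttgCCCttCCCt
The first 4 mRNAs had the highest values, and the last 4 the lowest apart from Sec11c (−3.98), whose sequence is not shown here. Windows of the enriched mRNAs held 20 C in Sec24a, 20 in Vps37c, 16 in Sec61a2 and 21 in Ap3s2, and those of the depleted mRNAs held 7 in Sec61b, 15 in Trappc2l, 12 in Trappc4 and 15 in Trappc6a. Of all 22378868 windows of this length in the 3' UTRs of protein-coding genes, 0.0712% held at least 20 C, 0.768% at least 16, 1.41% at least 15 and 46.7% at least 7. Each window shown is the most C-rich of its 3' UTR, whereas these shares are of single windows. They therefore do not say how rare such a window is as the highest of a whole 3' UTR. The highest windows of other 3' UTRs were not measured. The enriched mRNAs also had 3' UTRs of 848 to 5159 nt to search and the depleted ones 180 to 1224 nt, so the windows come from searches of unequal length. No binding site was mapped in these data.

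More trafficking mRNAs were depleted from the IP than enriched in it. Of the 123 tested, 33 were enriched, 60 were depleted and 30 did not pass (quasi-likelihood test of edgeR, with p adjusted by Benjamini-Hochberg over all genes tested and called under 0.05). Among all 16929 genes tested, 28.9% were enriched and 33.6% depleted, and among protein-coding genes 31.4% and 36.4%. The share enriched among the members, 26.8%, was near that background, and the share depleted, 48.8%, was above it. Their median log2 fold change, IP minus total RNA, was −0.40, against −0.07 for all genes and −0.12 for protein-coding genes. IP and total RNA libraries did not overlap for 98 members. The IP was higher in all 3 libraries for 35 of them and lower for 63, against 32.2% and 39.3% of all genes. With library totals in place of TMM factors, all genes moved by a median of −0.43, and the members counted 25 enriched and 76 depleted. No spiked-in RNA ties the amounts of the groups together, so all enrichment here is relative to the other genes of a library.

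**Figure D1:**
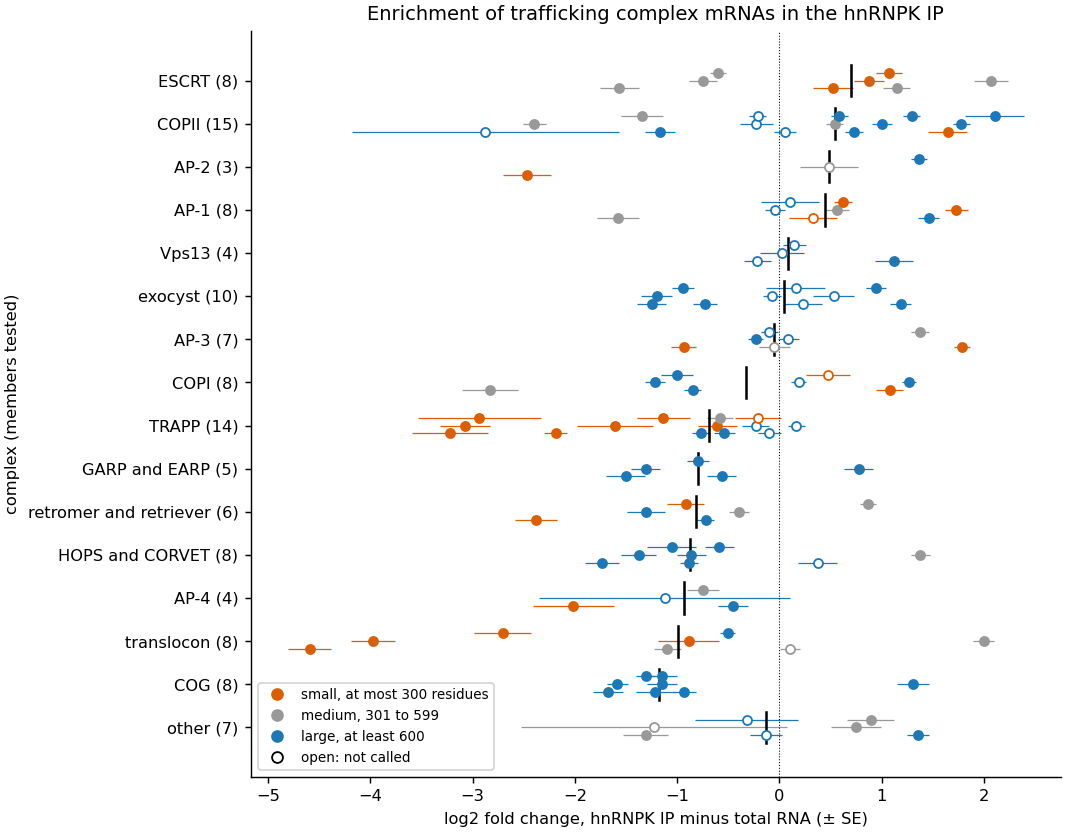
Log2 fold change (IP minus total RNA, ± SE, 3 libraries per group) of each tested member, by complex, with the number tested in parentheses and a black line at each complex's median. Colour gives the protein size and open symbols did not pass the test; COG and TRAPP lie mostly to the left of 0, with medians of −1.18 and −0.69, and most COPII genes to the right, with a median of 0.54.

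By protein length, small subunits were lower in the IP than large ones, as were small proteins in general. Small members were those whose longest annotated protein has at most 300 residues, and large members those with at least 600. The IP was enriched for 8 of 27 small members tested and depleted of 16, and their median log2 fold change was −0.92. Across all small protein-coding genes the share enriched was 21.9% and the share depleted 47.8% (median −0.77). Of 70 large members, 15 were enriched and 32 depleted (median −0.23). Here the background ran the other way: of large protein-coding genes 39.1% were enriched and 27% depleted, and their median was 0.20. Among the 26 members of medium size 10 were enriched and 12 depleted (median −0.22), beside 30.8% and 37.3% of all medium-sized proteins. The medians of small and medium members thus lay close to those of all proteins of their size, and the median of large members lay below. Size and complex overlap among the members. The 8 core genes of TRAPP are all small, and 7 were depleted and none enriched (median −1.90). Sec61b, Sec61g, Sec11a and Sec11c are small too, and all were depleted. The 8 enriched small members belong to other complexes. All 8 COG genes are large, and 7 were depleted. The division between size and complex was not tested.

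The difference of medians, small minus large, was −0.68. In single libraries, measured against the mean of total RNA, it was −0.57, −0.79 and −0.38 in IP libraries 1, 2 and 3, and −0.22, 0.11 and 0.10 in the total RNA libraries, so the IP libraries all lay below the total RNA libraries. With an offset for gene length, fitted over all genes, the difference turned to 0.32, with medians of −0.37 for small and −0.69 for large members. Gene length and protein size go together, and the division between them was not tested. Genes on either side of the limit of 300 residues did not sort by direction: Vps37b (285 residues) and Vps26c (297) stood at 1.07 and −0.92, and Sec22c (303), Sec22a (307) and Cope (308), just above it, at 0.54, −1.35 and −2.83.

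**Figure D2:**
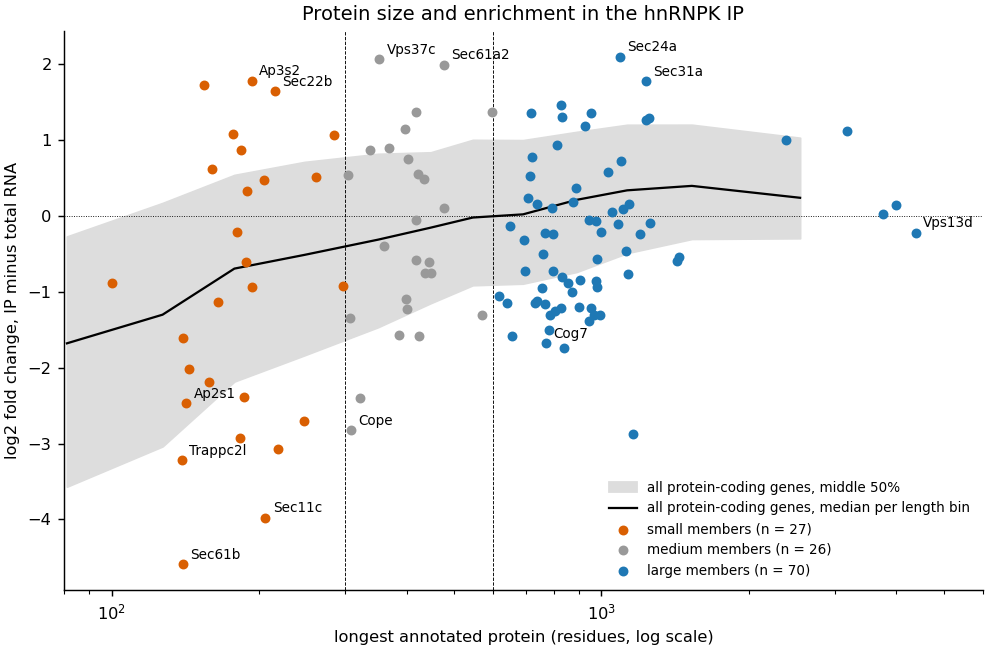
Log2 fold change (IP minus total RNA) of each tested member against its longest annotated protein (residues, log scale). The line and band give the median and middle 50% of all protein-coding genes in length bins and the dashed lines mark 300 and 600 residues; small members run from −4.59 for Sec61b to 1.78 for Ap3s2.

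Among adaptors and COPI, subunits were also classed by the name of their chain rather than by length, and the order was reversed. Epsilon-COP (Cope), classed as small by name, has 308 residues and is of medium size by length. The large alpha chains of AP-2 are left out by the symbol rule. Of them, Ap2a1 (0.21 ± 0.10) was not called and Ap2a2 (−0.92 ± 0.11) was depleted. The 10 small subunits (sigma chains, zeta-COP and epsilon-COP) had a median of 0.40, with 4 enriched and 4 depleted, and the 14 large chains had a median of −0.07, with 3 enriched and 5 depleted, a difference of 0.47. The small subunit mRNAs themselves covered a range from −2.83 for Cope to 1.78 for Ap3s2. Small chains thus stood at both ends of the range within these coats.

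The length of the 3' UTR went with enrichment, above all among the small subunits. Across members, the Spearman correlation of log2 fold change with the longest annotated 3' UTR was 0.44 (123 genes), and it was 0.66 for the 27 small and 0.37 for the 70 large members, beside 0.49 for 13476 protein-coding genes. These are descriptions across genes that share libraries, and genes are not independent replicates. With a 3' UTR of at least 1500 nt, 6 of 8 small members were enriched and 2 depleted (median 1.07), against 42.1% and 26.9% of all small protein-coding genes with such a 3' UTR. Those 6 were Ap3s2, Ap1s3, Sec22b, Copz1, Vps37b and Ap1s2, and the depleted were Trappc5 and Vps29. With a 3' UTR under 500 nt, none of 8 small members was enriched by edgeR (limma-voom also gave 0, as did an unadjusted p under 0.05, and DESeq2 gave 1), 7 were depleted and the median was −2.59. Of all small protein-coding genes with so short a 3' UTR 4.38% were enriched and 67.2% depleted, so these counts are near that background. Among all small protein-coding genes the medians for these UTR lengths were 0.31 and −2.24, so small proteins in general also differed by UTR length. The correlation was not measured for small protein-coding genes alone. Large members with a 3' UTR of at least 1500 nt had 6 enriched and 6 depleted of 22 (median −0.02), where 57.6% of all such large proteins were enriched, 13.1% were depleted and the median was 0.76. With a 3' UTR under 500 nt, 1 of 12 large members was enriched and 7 were depleted (median −1.09). Of all large proteins with so short a 3' UTR, 14.1% were enriched and 46.8% depleted (median −0.63). These limits on UTR length were chosen after values were seen.

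**Figure D3:**
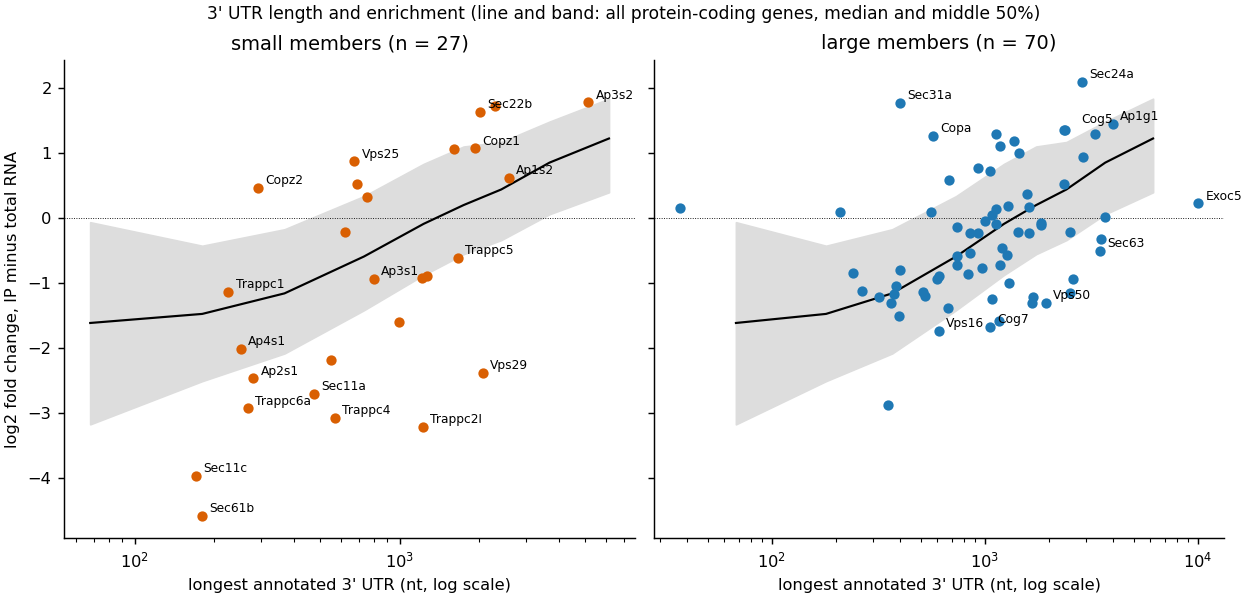
Log2 fold change (IP minus total RNA) against the longest annotated 3' UTR (nt, log scale) for small members on the left and large members on the right. The line and band give the median and middle 50% of all protein-coding genes; small members with a 3' UTR under 500 nt have a median of −2.59 and those of at least 1500 nt a median of 1.07, while Vps29 lies at −2.38 with a 3' UTR of 2062 nt.

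The tetramer TCCC, searched on the transcript strand of the longest annotated 3' UTR, was denser in enriched members. Its median was 5.66 per kb in the 33 enriched and 3.58 per kb in the 60 depleted members, beside 5.45 and 3.61 per kb in all enriched and depleted protein-coding genes. The Spearman correlation of this density with log2 fold change was 0.26 among members (122 genes) and 0.27 among protein-coding genes (12979). Trappc6a, with 11.2 per kb in a 3' UTR of 268 nt, and Trappc2l, with 8.99 per kb, were depleted all the same, and Sec24a, the most enriched member, had 2.10 per kb. GC content of the transcript had correlations of −0.04 among members and −0.00499 among protein-coding genes.

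At the entry to the pathway, mRNAs of the small channel and signal peptidase subunits were depleted. Of 8 translocon and signal peptidase members, 1 was enriched and 6 were depleted (median −0.99), and the offset for gene length gave 1 and 5. This count, and those of each complex below, stand beside 28.9% enriched and 33.6% depleted among all genes tested. Sec61b (ENSMUSG00000053317.11, chromosome 4, 47474658 to 47483242) encodes the beta subunit of the channel and had the lowest value of any member. IP libraries held 3.60, 2.82 and 4.04 CPM of Sec61b and total RNA libraries held 65.7, 96.0 and 92.0. The groups lay far apart, 24.1-fold (log2 fold change −4.59 ± 0.21, adjusted p = 2.03e-06). Sec11c, a catalytic subunit of signal peptidase, had 5.05, 6.92 and 8.66 CPM in the IP and 91.3, 116 and 118 in total RNA (−3.98 ± 0.22, adjusted p = 3.65e-06). Its paralog Sec11a had 13.0, 8.31 and 19.1 against 78.2, 93.3 and 93.0 CPM (−2.71 ± 0.28). Both catalytic subunits were therefore lower in every IP library than in any total RNA library.

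The pore itself behaved differently from its small partners. Sec61a1 (chromosome 6, 88503579 to 88518905), which encodes the main pore-forming subunit, had 529, 550 and 454 CPM in the IP and 508, 461 and 459 in total RNA. The groups overlapped and the gene did not pass (0.10 ± 0.10), although library totals alone gave −0.33 and a call. Its paralog Sec61a2 (ENSMUSG00000025816.15, chromosome 2, 5870987 to 5895432), which codes for a protein of the same length, had 55.6, 58.2 and 61.5 CPM in the IP and 14.0, 14.9 and 15.1 in total RNA. It was 3.99-fold higher in the IP (2.00 ± 0.10, adjusted p = 3.08e-06). Of its exonic bases 19.9% overlap Nudt5 on the other strand. Sec61g, another small subunit whose longest annotated protein has 100 residues, had 1.60, 2.37 and 2.25 against 3.28, 3.88 and 4.35 CPM (−0.89 ± 0.30, adjusted p = 0.0303). That call ended without total RNA replicate 1, 2 or 3, at −0.95, −0.85 and −0.75, and with the length offset, at −0.34. The channel partners Sec63, a J-domain protein that recruits the chaperone BiP, and Sec62 were depleted at −0.51 ± 0.07 and −1.10 ± 0.13.

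COPII, the coat of vesicles leaving the endoplasmic reticulum, had 8 enriched and 3 depleted of 15 members and a median of 0.54; scaling by library totals gave 6 and 6. The enriched genes were Sec31a, Sec16a, Sec22b, Sec22c and all 4 Sec24 genes, which encode the cargo-binding subunit of the inner coat. Sec24a (ENSMUSG00000036391.16, chromosome 11, 51692264 to 51763634) had 173, 250 and 109 CPM in the IP and 48.9, 38.0 and 37 in total RNA. It was 4.29-fold higher in the IP (2.10 ± 0.29, adjusted p = 0.000333), with a wide spread among the IP libraries and no overlap with total RNA. Sec24b, Sec24c and Sec24d followed at 1.29 ± 0.08, 0.73 ± 0.09 and 0.59 ± 0.08, and library totals alone ended the call for Sec24d (0.15).

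The outer cage of COPII is built from Sec13 and Sec31, and their mRNAs went in opposite directions. Sec31a (ENSMUSG00000035325.16, chromosome 5, 100361649 to 100416234), the long scaffold protein, had 902, 833 and 961 CPM in the IP and 254, 269 and 263 in total RNA, 3.43-fold higher (1.78 ± 0.08, adjusted p = 2.23e-06). Sec13 (ENSMUSG00000030298.10, chromosome 6, 113728062 to 113740743), its short partner of 322 residues, had 17.9, 20.0 and 20.9 against 95.8, 104 and 109 CPM, 5.26-fold lower (−2.40 ± 0.11, adjusted p = 1.90e-06). In reads, the ratio of Sec13 to Sec31a was 0.393 ± 0.0205 in total RNA and 0.0219 ± 0.00208 in the IP (SD, n = 3 each), an 18-fold change. A ratio within a library does not depend on the scaling between libraries. Sec31b, the paralog, rests on 5 IP reads, all in IP library 3, and 57 total RNA reads (−2.88 ± 1.30, not called).

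The Sec23 genes, whose products pair with Sec24 in the inner coat and act on the GTPase Sar1, did not follow the Sec24 genes. Sec23b had 72.0, 49.8 and 67.5 CPM in the IP and 133, 149 and 142 in total RNA (−1.16 ± 0.14, adjusted p = 0.000201). Sec23a, at 22.7, 18.1 and 15.7 against 22.9, 21.1 and 22.2 CPM, did not pass (−0.23 ± 0.16), and without IP replicate 1 it was called at −0.42. Sec16a, a scaffold of the exit site, was enriched (1.00 ± 0.10) and its relative Sec16b had 0.05 ± 0.11. Sec22b, a SNARE that fuses vesicles between the endoplasmic reticulum and the Golgi, had 502, 615 and 353 CPM in the IP and 166, 149 and 156 in total RNA (1.64 ± 0.19). Among the related Sec22 genes, Sec22c had 0.54 ± 0.08, a call that library totals alone ended (0.10), and Sec22a was depleted (−1.35 ± 0.21).

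**Figure D4:**
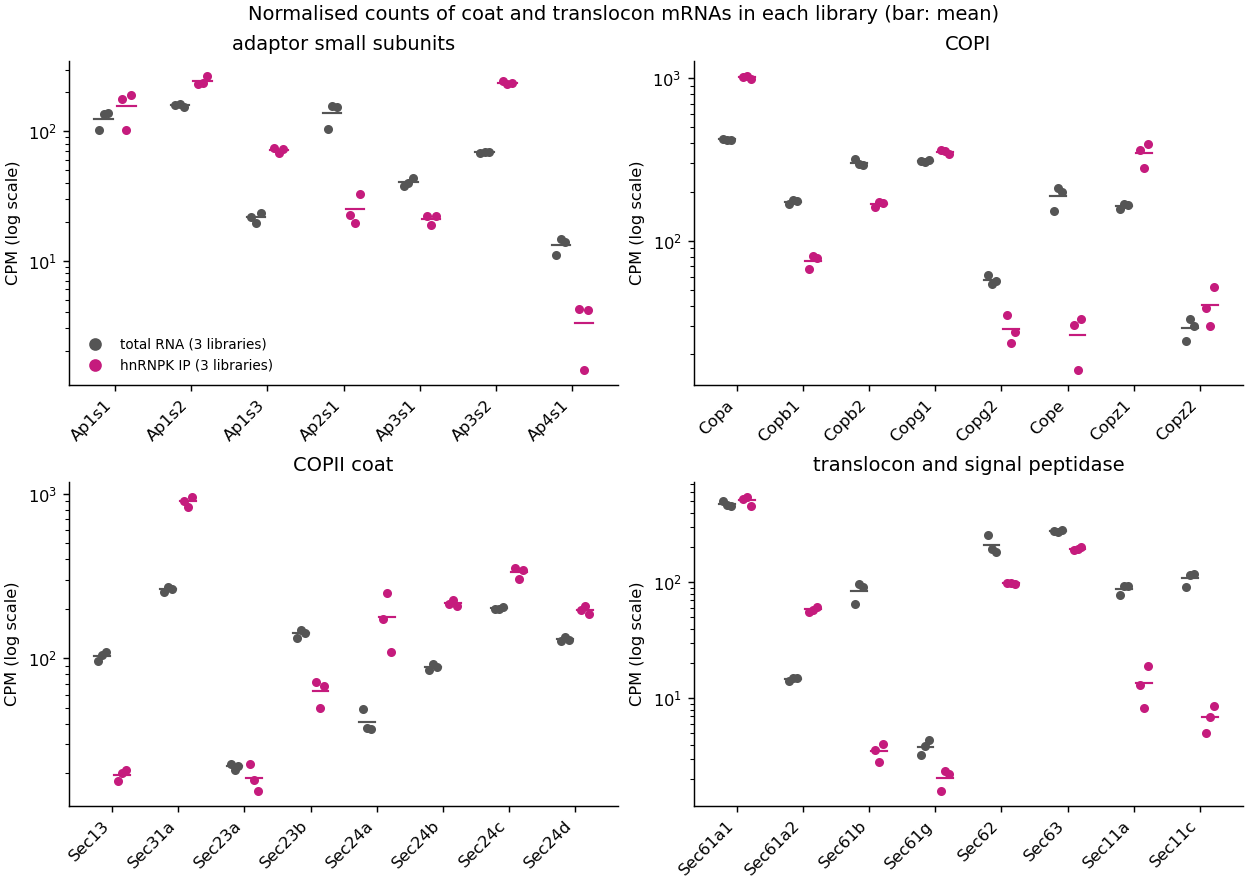
Normalised counts (CPM, log scale) of adaptor small subunit, COPI, COPII and translocon mRNAs in each of the 3 total RNA libraries (grey) and 3 IP libraries (magenta), with a bar at each mean. Subunits of the same coat lie on opposite sides, as with Copa (422 CPM in total RNA and 1018 in the IP) and Cope (188 and 26.4).

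COPI, the coat of retrograde vesicles, divided in the same manner, with 2 enriched, 4 depleted and 2 not called of 8 members (median −0.33). With DESeq2 or the stricter filter on low counts 4 were enriched, as Copz2 (0.52 and 0.57) and Copg1 (0.23 and 0.28) were then called. Copa (ENSMUSG00000026553.17, chromosome 1, 172082529 to 172122330), the alpha-COP scaffold, had 1024, 1038 and 992 CPM in the IP and 427, 420 and 420 in total RNA (1.27 ± 0.07, adjusted p = 3.61e-06). Cope (ENSMUSG00000055681.14, chromosome 8, 70302518 to 70312993), the epsilon-COP that binds alpha-COP, had 30.4, 16 and 32.9 against 153, 211 and 199 CPM (−2.83 ± 0.27, adjusted p = 5.09e-05). The ratio of Cope to Copa reads was 0.445 ± 0.0756 in total RNA and 0.0261 ± 0.00939 in the IP, a 17.8-fold change. The large subunits beta-COP (Copb1, −1.21 ± 0.10) and beta prime-COP (Copb2, −0.85 ± 0.08) were depleted, so the large subunits of this coat did not move together.

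COPI also has paralogs for gamma and zeta. Copz1, a small subunit of 177 residues with a 3' UTR of 1934 nt, had 362, 281 and 396 CPM in the IP and 158, 168 and 167 in total RNA (1.08 ± 0.13). Copz2 had 38.6, 30.1 and 52.2 against 24.2, 33.2 and 29.9 CPM and did not pass (0.47 ± 0.21), although it was called without IP replicate 2 (0.65). Copg1 had 0.19 ± 0.07 and was not called, with −0.36 and a call under the length offset, and Copg2 was depleted, with 28.7 ± 5.82 CPM in the IP against 57.5 ± 4.16 (SD, n = 3 each). Of the exonic bases of Copg2, 17.8% overlap Mest on the other strand.

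The adaptor complexes AP-1 to AP-4 are heterotetramers of large, medium and small chains, and their enrichment went by gene rather than by chain. AP-1, which works at the Golgi and endosomes, had 4 enriched and 1 depleted of 8 (median 0.44), and library totals alone gave 2 and 2 (median 0.01), while the median was 0.26 without IP replicate 3. Ap1s3, a sigma chain, had 74.4, 67.6 and 72.7 CPM in the IP and 21.9, 19.4 and 23.4 in total RNA, 3.31-fold higher (1.73 ± 0.11, adjusted p = 6.92e-06). The large chain Ap1g1 was enriched too (1.46 ± 0.10), with 18.7% of its exonic bases overlapping an antisense gene. Ap1s2 (0.62 ± 0.09) and Ap1m1 (0.56 ± 0.13) passed, but not with library totals alone (0.18 and 0.13). Ap1m2, the mu chain of epithelial cells, was depleted, at 7.12, 4.97 and 7.46 against 17.4, 19.7 and 21.4 CPM (−1.58 ± 0.20). Ap1b1 had 137, 116 and 127 CPM in the IP and 138, 125 and 131 in total RNA, and the groups overlapped (−0.05 ± 0.10).

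AP-2, the adaptor of endocytosis, had 3 members here and 1 in each class. Ap2b1 (ENSMUSG00000035152.14, chromosome 11, 83299024 to 83405035), its beta chain, had 550, 531 and 505 CPM in the IP and 211, 204 and 202 in total RNA (1.36 ± 0.08, adjusted p = 4.06e-06). Ap2s1 (ENSMUSG00000008036.11, chromosome 7, 16738410 to 16749294), its sigma chain, had 22.6, 19.7 and 32.8 against 105, 156 and 155 CPM (−2.47 ± 0.24, adjusted p = 4.70e-05). The ratio of Ap2s1 to Ap2b1 reads changed 14.3-fold, from 0.676 ± 0.156 in total RNA to 0.0477 ± 0.0151 in the IP. Ap2m1 had 0.49 ± 0.28 and did not pass, with 37.6 CPM in IP library 2 against 67.6 and 81.2 in the other IP libraries, and without IP replicate 2 it was called at 0.75.

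AP-3, which sorts cargo to lysosomes and granules, had 2 enriched and 2 depleted of 7, library totals alone gave 2 and 5, and leaving out IP replicate 1 or any 1 total RNA library gave 2 and 1. Its median of −0.05 had no stable sign, at −0.17 without IP replicate 3 and 0.04 without total RNA replicate 2. Its sigma chains are paralogs of the same length that lay on opposite sides. Ap3s2 (ENSMUSG00000063801.7, chromosome 7, 79875325 to 79920649), with a 3' UTR of 5159 nt, had 245, 232 and 234 CPM in the IP and 67.9, 69.5 and 69.6 in total RNA (1.78 ± 0.08, adjusted p = 1.68e-06). Ap3s1, with a 3' UTR of 801 nt, had 22.2, 19.0 and 22.3 against 37.9, 40.0 and 43.6 CPM (−0.93 ± 0.12, adjusted p = 0.000254). The ratio of Ap3s1 to Ap3s2 reads fell 6.59-fold, from 0.587 ± 0.0349 to 0.0892 ± 0.00686. Ap3m1 was enriched (1.37 ± 0.09) while 29.8% of its exonic bases overlap Vcl on the other strand, itself at 2.09, and it has a processed pseudogene with 1.22 ± 0.11, so how reads were divided between the copies is uncertain. The pseudogenes of Ap3s1 had −1.10 ± 0.18 and −0.68 ± 0.23. The large chain Ap3d1 was depleted at −0.23 ± 0.08 (adjusted p = 0.0290), a call that ended without IP replicate 1 (−0.25) and without total RNA replicates 1, 2 and 3 (−0.17, −0.20 and −0.23).

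AP-4, the adaptor that carries the autophagy protein Atg9 from the Golgi, had 3 depleted and none enriched of 4 members by edgeR, and DESeq2, limma-voom and an unadjusted p under 0.05 also gave 0. Its sigma chain Ap4s1 had 4.22, 1.43 and 4.17 CPM in the IP and 11.2, 14.7 and 13.9 in total RNA (−2.01 ± 0.39, adjusted p = 0.00241). Ap4m1 had −0.75 ± 0.16, with 22.1% of its exonic bases overlapping Taf6, and Ap4e1 −0.46 ± 0.14, a call that ended without total RNA replicate 1, 2 or 3 (−0.39, −0.47 and −0.40). Ap4b1 had 0, 44 and 6 reads in the IP and 77, 45 and 61 in total RNA and was not called (−1.12 ± 1.23), and without IP replicate 2 it was called at −3.72. Its exons overlap Gm43064 on the same strand over 82.4% of their length, and reads in the shared bases may not have been counted.

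TRAPP, a tether and exchange factor for Rab GTPases on the Golgi and in autophagy, was depleted in its small core. No TRAPP gene was enriched by edgeR (limma-voom also gave 0 of 14, as did an unadjusted p under 0.05), 10 were depleted and the median was −0.69. DESeq2 called Trappc9 enriched, and with the length offset Trappc3 was (0.64). Of the 8 core genes, all of at most 219 residues, 7 were depleted (median −1.90), and of the 6 genes of TRAPPII and TRAPPIII, 3 were (median −0.39). Among all small protein-coding genes 47.8% were depleted (median −0.77). Trappc2l (ENSMUSG00000015013.9, chromosome 8, 122611640 to 122616660) had 5.38, 1.82 and 3.17 CPM in the IP and 25.4, 33.9 and 37.3 in total RNA, 9.32-fold lower (−3.22 ± 0.37, adjusted p = 0.000138). Trappc4 had 1.92, 2.49 and 1.77 against 13.6, 18.7 and 19.7 CPM (−3.07 ± 0.24), with 18.9% of its exonic bases overlapping Rps25, which was itself at −4.15. Trappc6a had 2.54, 0.334 and 2.12 against 9.33, 14.7 and 14.3 CPM (−2.93 ± 0.60), the widest error of a depleted core gene.

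The other core genes filled the space up to no change. Trappc6b and Trappc2 were depleted at −2.19 ± 0.11 and −1.61 ± 0.37, and Trappc1 at −1.13 ± 0.26, which the length offset took to −0.09 without a call. Trappc5 (−0.61 ± 0.19, adjusted p = 0.0248) lost its call without IP replicate 1 (−0.69) and without total RNA replicates 2 and 3 (−0.53 and −0.52). Trappc3, which carries a lipid anchor, had 39.4, 26.5 and 50.7 CPM in the IP and 39.4, 51.4 and 44.4 in total RNA (−0.21 ± 0.23, not called). Among the genes of TRAPPII and TRAPPIII, Trappc8 (−0.54 ± 0.10), Trappc11 (−0.77 ± 0.09) and Trappc13 (−0.58 ± 0.12) were depleted, and Trappc9, at 81.8, 85.9 and 81.3 against 77.8, 72.3 and 71.9 CPM, was not called (0.17 ± 0.09), although its groups did not overlap.

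COG, the tether of retrograde traffic within the Golgi, was depleted in all but 1 of its subunits. The 8 subunits all have 640 residues or more, and the 7 depleted ones stood at −1.68 to −0.93 (median of the complex −1.18), with the same counts under library totals and under the length offset. Among all large protein-coding genes 27% were depleted. Cog7 was lowest, at 19.3, 14.0 and 14.6 CPM in the IP and 52.3, 51.2 and 49.9 in total RNA (−1.68 ± 0.15, adjusted p = 3.03e-05). Cog6 (−1.58 ± 0.10), Cog4 (−1.31 ± 0.09) and Cog3 (−1.21 ± 0.19) followed. Cog5 (ENSMUSG00000035933.5, chromosome 12, 31654869 to 31937630), which pairs with Cog7 in lobe B, was the exception, at 33.4, 46.3 and 34.4 CPM in the IP and 15.9, 15.5 and 14.9 in total RNA (1.30 ± 0.15, adjusted p = 0.000158). Its 3' UTR of 3310 nt is the longest among the COG genes, and 24.0% of its exonic bases overlap Hbp1 on the other strand, itself at 0.47. Overlaps of 22.4% with Fam104a and 28.2% with Pdf also touch Cog1 (−0.93 ± 0.11) and Cog8 (−1.15 ± 0.15).

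The exocyst, which tethers secretory vesicles at the plasma membrane, had 2 enriched, 4 depleted and 4 uncalled of 10 tested members. Its median of 0.04 turned to −0.39 with library totals, to −0.61 with the length offset, and to −0.08 and −0.01 without IP replicates 2 and 3. Exoc2, the Sec5 homolog that binds Ral GTPases, had 71.0, 69.5 and 62.7 CPM in the IP and 30.3, 31 and 27.9 in total RNA (1.19 ± 0.10, adjusted p = 2.67e-05). Exoc6b was enriched (0.94 ± 0.10) and its paralog Exoc6 depleted, at 14.6, 15.3 and 16.6 against 42.2, 32.9 and 35.4 CPM (−1.25 ± 0.14). Exoc1 (−1.20 ± 0.15), Exoc3 (−0.94 ± 0.11) and Exoc7 (−0.72 ± 0.12), the last a subunit that binds the plasma membrane, were depleted as well. Exoc5, with the longest 3' UTR of any tested member at 10071 nt, had 0.23 ± 0.18 and Exoc4 −0.07 ± 0.09, and neither passed. With the length offset both were called depleted, at −0.55 and −0.68, and library totals alone also called Exoc4 (−0.51). Exoc8 (0.53) did not pass but was called enriched in 8 alternatives, DESeq2 (0.57) among them.

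HOPS and CORVET tether late and early endosomes. Of 8 genes grouped under them by symbol, 6 were depleted and 1 enriched (median −0.87), beside 33.6% and 28.9% of all genes tested. Vps33b is among the 8 by its symbol and not as a subunit of either tether. Vps16, of the shared core, had 12.6, 10.4 and 15.3 CPM in the IP and 39.6, 44.8 and 43.1 in total RNA (−1.74 ± 0.16, adjusted p = 4.31e-05). Its binding partner Vps33a, an SM protein that guides SNARE assembly, had 173, 196 and 186 against 74.4, 66.4 and 72.8 CPM (1.38 ± 0.09, adjusted p = 8.31e-06). The paralog Vps33b was depleted (−1.05 ± 0.24), and the ratio of Vps33b to Vps33a reads went from 0.152 ± 0.0138 in total RNA to 0.0283 ± 0.00868 in the IP. Vps11, Vps18 and Vps41 had −1.38 ± 0.17, −0.86 ± 0.14 and −0.89 ± 0.09. Vps8, the subunit particular to CORVET, had −0.59 ± 0.14, a call that ended without total RNA replicates 2 and 3 (−0.53 and −0.50), and Vps39 of HOPS had 0.37 ± 0.19 and was called only without IP replicate 2 (0.58).

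Retromer and retriever return cargo from endosomes, and 5 of their 6 members were depleted (median −0.82), beside 33.6% of all genes tested. Vps29 (ENSMUSG00000029462.18, chromosome 5, 122354369 to 122364984), a small subunit of both, had 7.35, 5.37 and 8.01 CPM in the IP and 29.9, 42.3 and 36 in total RNA, 5.21-fold lower (−2.38 ± 0.21, adjusted p = 2.80e-05), despite a 3' UTR of 2062 nt. Vps35, the retromer scaffold, had 104, 106 and 101 against 181, 165 and 167 CPM (−0.72 ± 0.08), and its retriever counterpart Vps35l −1.30 ± 0.18. The arrestin-like subunits were split: Vps26b, at 148, 152 and 152 against 84.4, 83.0 and 80.9 CPM, was enriched (0.87 ± 0.08), Vps26c of retriever was depleted (−0.92 ± 0.18), and Vps26a had −0.40 ± 0.10. The call for Vps26a ended under the length offset (0.02) and without total RNA replicates 2 and 3 (−0.35 and −0.36).

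GARP and EARP, which receive endosome-derived vesicles, had 4 depleted and 1 enriched of 5 (median −0.80), beside 33.6% and 28.9% of all genes tested. Vps51 (−1.50 ± 0.19), Vps50 (−1.31 ± 0.15), Vps53 (−0.80 ± 0.11) and Vps54 (−0.56 ± 0.14) were depleted, and the call for Vps54 ended without total RNA replicate 1 (−0.46). Vps52, another shared subunit, had 86.8, 76.7 and 102 CPM in the IP and 44.5, 57.1 and 53.8 in total RNA (0.78 ± 0.14), and lost its call with library totals alone (0.34).

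The ESCRT genes encode proteins that bud vesicles into endosomes. Of the 8 members chosen by symbol, 5 were enriched and 3 depleted (median 0.70), and library totals alone gave 4 and 3. Of 20 further ESCRT genes that the symbol rule leaves out, 5 were enriched and 13 depleted, Tsg101 of ESCRT-I (−1.19 ± 0.23) and Snf8 of ESCRT-II (−3.17 ± 0.44) among the depleted. All 4 Vps37 genes, alternative subunits of ESCRT-I, were enriched. Vps37c (ENSMUSG00000048832.8, chromosome 19, 10688735 to 10714627) had 259, 184 and 284 CPM in the IP and 53.3, 61.0 and 59.4 in total RNA, 4.19-fold higher (2.07 ± 0.17, adjusted p = 1.91e-05). Vps37a and Vps37b had 1.15 ± 0.13 and 1.07 ± 0.12, with 32.9% of the exonic bases of Vps37b overlapping Hip1r. Vps37d, at 0.52 ± 0.20 (adjusted p = 0.0476), lost its call in 5 of 6 fits that left out a library: without IP replicates 1 and 3 (0.48 and 0.32) and without total RNA replicates 1, 2 and 3 (0.48, 0.60 and 0.59). Partners in ESCRT-II were split, with Vps25 at 132, 94.9 and 138 against 63.1, 69.9 and 66.1 CPM (0.88 ± 0.15) and Vps36 at 22.8, 13.2 and 18.2 against 52.3, 53.2 and 54.9 CPM (−1.57 ± 0.19). Ramp2, on the same strand, covers 67.2% of the exonic bases of Vps25. The ATPases Vps4a (−0.75 ± 0.14) and Vps4b (−0.60 ± 0.08) were both depleted, Vps4a not under the length offset (−0.24).

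The Vps13 genes encode the longest proteins among the members and transfer lipids between membranes. Vps13a had 80.7, 99.1 and 63.1 CPM in the IP and 44.1, 34.5 and 33.1 in total RNA (1.12 ± 0.19, adjusted p = 0.00103), and with the length offset it stood at 0.34, still called. Vps13b, Vps13c and Vps13d had 0.15 ± 0.11, 0.02 ± 0.21 and −0.22 ± 0.13 and did not pass, and DESeq2, limma-voom and an unadjusted p under 0.05 also gave 0 depleted. With the length offset all 3 were called depleted, at −0.69, −0.74 and −1.12, library totals alone also called Vps13d (−0.65), and it was called without IP replicate 2 (−0.33). The remaining symbols belong to no one machine. Sec14l1, a lipid-binding protein, had 184, 171 and 195 CPM in the IP and 63.6, 75 and 76.4 in total RNA (1.35 ± 0.11). Vps45, an SM protein of endosomal fusion, was depleted (−1.31 ± 0.22), and Vps72, a subunit of a chromatin complex, had 0.89 ± 0.23 and lost its call with library totals alone (0.46).

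Reads of partners and paralogs within a library were set side by side in 20 pairs, picked after their values were seen and given without a test. In 18 of them the ratios of the IP libraries did not overlap those of total RNA, and the exceptions were Vps4a to Vps4b and Trappc6a to Trappc6b. The share among other pairs of genes was not measured. Among single genes tested, 32.2% had the IP above total RNA without overlap and 39.3% had it below. The count is therefore not a trait shown to belong to partners or paralogs. The widest change was that of Sec61b to Sec61a1, from 0.179 ± 0.0435 in total RNA to 0.00694 ± 0.00189 in the IP, 25.9-fold. Sec23b to Sec24a changed 9.29-fold, Vps36 to Vps25 5.50-fold, and Sec61a2 to Sec61a1 3.72-fold in the other direction, from 0.0309 ± 0.00289 to 0.115 ± 0.0173. Vps26a to Vps26b fell from 0.483 ± 0.0136 to 0.201 ± 0.00808.

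**Figure D5:**
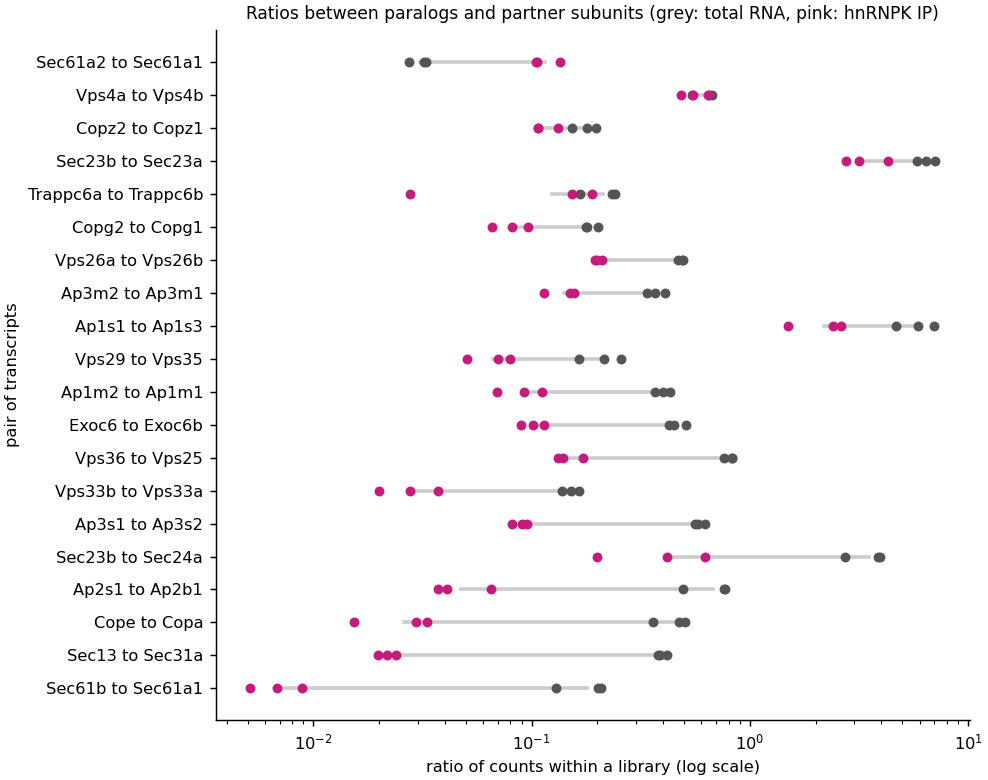
Ratio of reads (log scale) between 2 members within each library for 20 pairs of partners or paralogs, with total RNA libraries in grey, IP libraries in magenta and a line joining the means. Groups are apart in 18 pairs, the widest being Sec61b to Sec61a1 (0.179 in total RNA and 0.00694 in the IP).

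Levels per exonic kb of subunits of 1 complex were spread more widely in the IP. In 12 of 13 complexes with at least 4 members at 5 CPM or more on average, the SD of log2 CPM per kb across subunits was higher in every IP library than in any total RNA library. For COPI it was 1.49 to 1.68 in the IP and 0.875 to 0.887 in total RNA, and for retromer and retriever 1.66 to 1.92 and 0.834 to 0.934. COG was the exception, at 0.630 to 0.761 in the IP and 0.976 to 0.997 in total RNA. IP libraries also vary more between replicates, and how much of the spread comes from that was not tested. The same SD was not measured across other sets of genes. Log2 fold changes of all genes tested were themselves wide, with lower and upper quartiles of −1.20 and 0.96. A wider spread in the IP is therefore not a trait shown to belong to subunits of a complex.

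Genes of the same machines that the symbol rule leaves out were counted from lists of named genes. Of 115 tested, 36 were enriched and 59 depleted (median −0.42), beside the 28.9% and 33.6% of all genes given above, against which the lists that follow should also be read. For COPI and its Arf switch, 5 of 9 were enriched and 4 depleted. Arcn1, the delta-COP subunit, stood at 1.87 ± 0.08 and the exchange factor Gbf1 at 1.97 ± 0.07. The short Arf GTPases were split, with Arf3 (0.95 ± 0.10) and Arf4 (1.48 ± 0.14) enriched and Arf1 (−1.41 ± 0.08) and Arf5 (−1.52 ± 0.09) depleted. The COPII list had 1 enriched and 4 depleted of 6, including the GTPases Sar1b (−1.76 ± 0.19) and Sar1a (−0.44 ± 0.09). Signal recognition, translocon and signal peptidase partners had 6 enriched and 9 depleted of 16, from the receptor subunit Srpr (1.07 ± 0.10) to Ssr4 (−4.20 ± 0.30), Spcs1 (−4.15 ± 0.27) and Srp14 (−3.63 ± 0.19). Cargo receptors had 9 enriched and 8 depleted of 20, with Ergic1 at 1.93 ± 0.15, Kdelr1 at 1.60 ± 0.14 and Tmed3 at −3.05 ± 0.22.

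Clathrin and further adaptor genes had 4 enriched and 4 depleted of 12, with the light chains on opposite sides, Cltb at 0.82 ± 0.09 and Clta at −2.66 ± 0.21. Early secretory SNAREs and tethers had 4 enriched and 11 depleted of 19, from Gosr1 (1.90 ± 0.13) to Use1 (−3.41 ± 0.28). Retromer and ESCRT partners had 6 enriched and 16 depleted of 26 (median −1.29). Most ESCRT-III genes on that list were depleted, such as Chmp2a (−2.75 ± 0.38) and Chmp4b (−2.03 ± 0.09), and the enriched included Pdcd6ip, which encodes Alix (1.64 ± 0.09), and Hgs (0.99 ± 0.10). Partners of HOPS and retriever had 1 enriched and 3 depleted of 7.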

How the data were processed

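The authors' deposited tables give raw read counts for each gene, 1 table per library, without normalisation. Per the submitters' processing notes, reads were aligned to mm10 with TopHat2 and counted with featureCounts; for versions, annotation, strand setting and treatment of multiply aligned reads the sources used here state nothing. Reads of overlapping genes cannot be told apart while the strand setting is unknown. Among counts of 1 to 20, 58.6% to 68.7% were even, so halved counts were tried as an alternative. Of 53379 genes, 53274 matched GENCODE M21 (GRCm38), which supplied symbols, lengths, coordinates and transcript sequences. The unmatched 105 took up to 0.0237% of the counts in a library. One gene of the symbol pattern was not analysed here.

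Groups came from sample titles. Separate cultures are not stated for the libraries of a group, so the p-values rest on differences among these libraries that may be technical. No pair within a group agreed within sampling noise (chi-square per degree of freedom 6.08 to 113). The test used edgeR 4.0.16 in R 4.3.3 on all genes (TMM factors, filterByExpr with minimum count 10 and total 15, quasi-likelihood F test on group, Benjamini-Hochberg adjusted p under 0.05 over 16929 genes), and the procedure was tested on simulated data. CPM use the TMM factors; log2 fold changes are IP minus total RNA ± SE. Alternatives used DESeq2 1.42.0, limma 3.58.1 (voom), other scalings and filters, a gene length offset (lowess, span 0.3), a replicate block and each library left out.

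Members and lists were chosen with earlier results of these data known. Values per library are given for many of the shortest and longest members of each complex, and of the highest and lowest with at least 5 CPM on average. They are also given for further members chosen after their values were seen. Sec1 had 0 reads, and Exoc3l2, Exoc3l4, Sec14l4 and Trappc3l had too few to test.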

Additional observations from a re-analysis of the deposited data

How the results depend on the processing

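The number of enriched members stayed within 25 to 37 and of depleted members within 53 to 76 over the alternatives run, and leaving out 1 library gave 31 to 37 and 54 to 62. The difference of medians, small minus large, was −0.76 to −0.60 with 1 library left out, −0.93 with limits of 250 and 800 residues, −0.97 with the shortest and longest 25% of transcripts, and −0.70 without members whose exons overlap another gene by at least 10% (27 enriched and 53 depleted, an alternative added after the data were seen). It reversed to 0.32 with the gene length offset and to 0.47 when adaptor and COPI subunits were classed by name; the cause was not tested. No label says what the replicate numbers in the titles mark. Same-numbered deviations from the group means correlated at 0.000874, −0.0709 and 0.120, and those with unlike numbers at −0.189 to 0.138. With 3 libraries per group, these values cannot show whether the libraries were paired. With the replicate block 32 members were enriched, 57 depleted and the difference was −0.69. Of 750 values for 50 members under 15 alternatives, 716 kept direction and side of the threshold, 25 lost their call and 8 gained one. Among these 50 members, Trappc9 alone reversed, from 0.17 without a call to −0.27 (adjusted p = 0.0294) with library totals alone. Over all 123 tested members, 25 of 33 enriched and 51 of 60 depleted kept their call in all 15 alternatives that could be fitted. Of the 30 uncalled, 27 were called in at least 1. The sign changed in at least 1 alternative for 18 of the 30 uncalled, 1 of the depleted and none of the enriched. Some uncalled members were called with the other sign. With the length offset, Copg1 went from 0.19 to −0.36, Exoc5 from 0.23 to −0.55 and Trappc3 from −0.21 to 0.64. IP counts of a few reads, as for Trappc6a, Ap4b1 and Sec31b, limit those values.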

Other observations

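Reads were also counted to pseudogenes with members' symbols. Ap3m1-ps had 2126, 2266 and 2199 reads in the IP and 1673, 1410 and 1441 in total RNA. Ap3s1-ps1 had 297, 236 and 430 against 1198, 997 and 1035 reads. Each lay on the same side as its parent gene, Ap3m1 or Ap3s1.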
